A study of Homo sapiens with 6 samples.

Results

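The MYC, MAX and MXD network is a family of transcription factors that pair through a shared dimerisation domain and read the same DNA element. All 10 members examined, MYC, MYCN, MAX, MNT, MXD1, MXD3, MXD4, MXI1, MGA and MLX, were taken by their names as a family, and no threshold on their values was applied. Each had a row naming it in all 6 expression tables, out of 56584 gene symbols named there. Of the 10, 3, MXI1, MAX and MNT, had a row under their name alone among the 13674 of the authors' deposited table comparing the lines. Any row there that names several genes was not searched for the others.

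The tables come from cultured human cells labelled as an immortalised lymphoma B cell line. LY19Y646F expressed the EZH2-Y646F mutant constitutively from a CMV promoter, and LY19WT carried EZH2 labelled as wild type. Both were untreated, were at passages 10 to 15 and gave 3 libraries each. Whether LY19Y646F is 1 clone or a pool is not given in the sources used here, so a difference between the lines cannot be told apart from a difference between clones. Polycomb repressive complex 2 methylates histone H3 at lysine 27, and EZH2 is its enzyme. Levels are FPKM, mapped fragments scaled to transcript length and to the library's total, so they can be compared between genes.

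MYC and MYCN need MAX as a partner to bind the element CACGTG, the E-box, and activate genes of growth and ribosome production. The MXD proteins, MXI1 (also called MXD2) and MNT also pair with MAX, but recruit the SIN3 corepressor with its histone deacetylases. MGA pairs with MAX inside a Polycomb-type complex, and MLX is the MAX-like partner of the glucose-sensing factors MLXIP and MLXIPL and of some MXD proteins. In B cells MYC is induced briefly on entry to the germinal centre, and its deregulation is a hallmark of several lymphomas.

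The promoters of the members other than MYC, which was left out of the search, were searched for the element through which the network acts. RefSeq sequence of the GRCh38.p14 build was used for these 9 members in 14 windows of 250 bases before an annotated start. CACGTG, which reads the same on both strands, occurred in 3 windows, those of MNT, MXD4 and MLX, and in 2228 of 35116 such windows of all genes, or 6.34%. The E-box lay 193 bases before the start of MNT, at chr17:2401061-2401310 on the minus strand, 238 bases before that of MXD4, at chr4:2262110-2262359 on the minus strand, and 50 bases before that of MLX, at chr17:42566850-42567099 on the plus strand. These 3 are printed 5′ to 3′ on the strand of the gene because they hold the network's own element, which is in capitals.
MNT: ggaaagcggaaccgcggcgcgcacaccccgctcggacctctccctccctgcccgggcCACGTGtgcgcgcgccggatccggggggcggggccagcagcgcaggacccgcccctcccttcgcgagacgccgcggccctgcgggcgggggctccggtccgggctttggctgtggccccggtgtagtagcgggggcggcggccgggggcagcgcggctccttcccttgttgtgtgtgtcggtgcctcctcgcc
MXD4: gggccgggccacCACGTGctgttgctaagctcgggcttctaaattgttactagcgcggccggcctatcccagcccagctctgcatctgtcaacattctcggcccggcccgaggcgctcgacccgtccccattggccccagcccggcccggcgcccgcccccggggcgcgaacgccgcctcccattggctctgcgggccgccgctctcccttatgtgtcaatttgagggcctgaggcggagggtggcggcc
MLX: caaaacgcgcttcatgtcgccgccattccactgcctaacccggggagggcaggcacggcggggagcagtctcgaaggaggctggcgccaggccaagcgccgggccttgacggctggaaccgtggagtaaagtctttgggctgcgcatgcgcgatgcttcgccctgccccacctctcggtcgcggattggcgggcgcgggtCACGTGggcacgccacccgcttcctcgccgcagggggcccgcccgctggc
None of the 3 windows of MXI1 held those letters, which says nothing of binding elsewhere, and a match is not evidence of binding.

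Library-wide properties bear on how these values read. Summed FPKM lay between 806102 and 1020940, and the depth in reads is unknown. The 10 highest rows held 27.5% of the sum in LY19WT replicate 3 and 5.71% to 9.38% in the other libraries. EZH2 had 70.2, 80.4 and 93.5 FPKM in LY19Y646F, against 60.6, 76.5 and 74.7 in LY19WT, which does not check the labels because mutant and wild-type transcripts are not separated. The lines differed in B cell stage markers. All 8 mature B cell markers had a value above 0 in some library of each line and summed to 1350 to 2706 FPKM in LY19Y646F and 546 to 922 in LY19WT, but MS4A1, which encodes CD20, had 83.1 to 118 FPKM in LY19Y646F and 0.0688 to 0.140 in LY19WT. Of 8 precursor B cell markers, DNTT and CD34 stayed below 0.1 FPKM in LY19Y646F, and CD34 alone did in LY19WT. The sum of the 8 was 94.6 to 121 FPKM in LY19Y646F and 844 to 2440 in LY19WT. In LY19Y646F most of it was MME, at 84.1, 81.5 and 84.6 FPKM, against 46.1, 74.3 and 48.3 in LY19WT, opposite to the sum. IGLL1 was the highest in LY19WT. Of the mature markers CD74 was the highest in both lines. PAX5 went opposite to their sum, with 35.2, 24.0 and 22.3 FPKM in LY19Y646F, against 118, 94.9 and 85.7 in LY19WT. Myeloid markers summed to 0.655 to 0.972 FPKM in LY19Y646F and 15.4 to 21.7 in LY19WT, mostly LYZ and CD33. T cell markers summed to 13.95 to 16.7 FPKM in LY19Y646F and 12.8 to 15.6 in LY19WT, nearly all of it TRAC. Erythroid and stromal markers summed to at most 0.332 FPKM in any library. The part of these differences in any result below was not tested. In bulk libraries, fewer cells of a type and less RNA per cell cannot be told apart.

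The members spanned a wide range of levels. In LY19WT, MYC was highest at 119 ± 28.2 FPKM, followed by MAX at 36.1 ± 4.84 and MLX at 31.5 ± 3.05 (SD, n = 3). MGA at 9.28 ± 1.04, MXI1 at 5.70 ± 0.362, MNT at 5.44 ± 0.269 and MXD4 at 2.196 ± 1.62 FPKM came next (SD, n = 3). The libraries of MAX and MLX overlapped in LY19WT, as did those of MXI1 and MNT, so neither pair can be ordered. MYCN was listed at 0 in all 6 libraries. MXD1 and MXD3 had no row of their own, and the row that MXD3 shared with RAB24 was also listed at 0 in all 6.

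**Figure D1:**
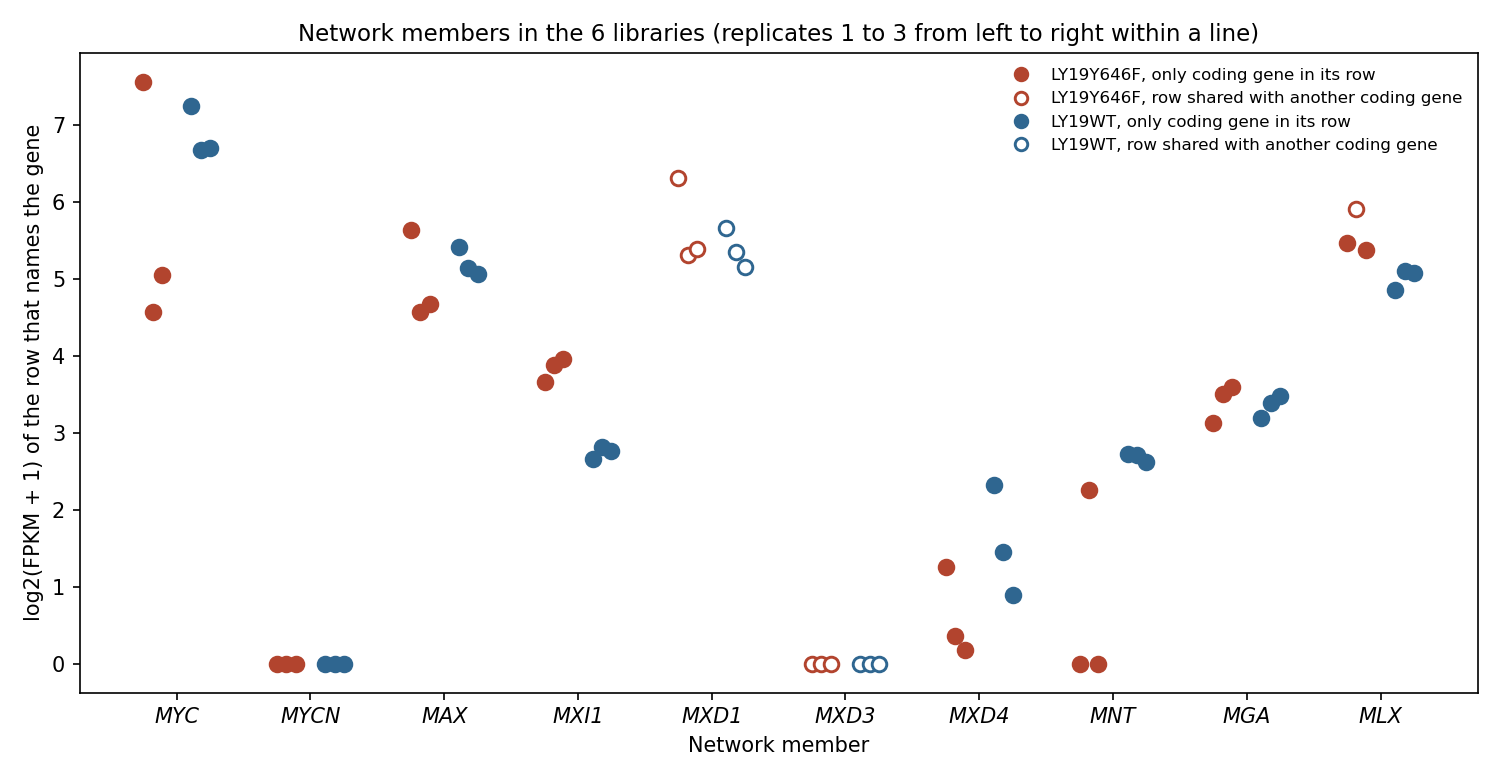
Level of the row that names each network member, as log2(FPKM + 1), in 3 LY19Y646F libraries (red) and 3 LY19WT libraries (blue), 1 point a library; open points are rows shared with another protein-coding gene. Among members with rows of their own in all libraries the lines do not overlap for MXI1, higher in LY19Y646F, and for MNT, where 2 LY19Y646F libraries are listed at 0 and no direction is drawn.

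Whether the network differed between the lines was tested with limma on log2(FPKM + 1), with Benjamini-Hochberg adjustment over 10710 genes and a threshold of 0.05. Of the 10 members, 6 could be tested, and 1 of these 6, MXI1, was called, as higher in LY19Y646F. Of all tested genes 33.3% were called, 16.8% as higher and 16.5% as lower in LY19Y646F, so the share among the members is not above that background. The libraries of the lines did not overlap for 2 of the 6, MXI1 and MNT, against 48.6% of all tested genes. The log2 difference was above 0 for 2 members and below 0 for 4, with a median of -0.60 beside -0.03 over all tested genes. The 4 include MNT, for which no direction is given below, and MYC. Adding rows without a gene name that overlap each locus gave 0.78 for MYC, -0.10 for MAX and -1.13 for MNT. It gave -1.82 for MXD4, 1.84 for MXI1 and 0.06 for MGA, so the median depends on how rows are counted. The labels call the libraries of a line biological replicates and do not say whether the cultures were separate. The p-values speak only of the spread among these libraries, which may be technical.

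MXI1, the repressor that competes with MYC for MAX, was the called member. Its row at hg19 chr10:111967363-112047123 had 11.6, 13.8 and 14.6 FPKM in LY19Y646F, against 5.31, 6.02 and 5.78 FPKM in LY19WT. Every LY19Y646F library lay above every LY19WT library. The means were 13.3 ± 1.52 FPKM in LY19Y646F and 5.70 ± 0.362 FPKM in LY19WT (SD, n = 3 each), a ratio of 2.34. The log2 difference was 1.09 (SE 0.13, 95% interval 0.77 to 1.42) with a limma adjusted p of 0.00227. The authors' deposited table gave MXI1 15.5 FPKM in LY19Y646F and 6.50 FPKM in LY19WT, a log2 fold change of 1.26. In LY19Y646F replicate 3 a further row with no gene name, at hg19 chr10:111966572-112054047, covered the locus and ran past its end, with 59.0 FPKM. Where unnamed rows were added to the genes they overlap, the difference of MXI1 was 1.84 with a limma adjusted p of 0.128, and that 1 library then stood far above the other 2. Without it the same fit gave 1.03 and a limma adjusted p of 0.025.

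MYC, the activator, had uneven values within LY19Y646F. Its named row at hg19 chr8:128747680-128753674, widened in some libraries, had 188, 22.7 and 32.2 FPKM in LY19Y646F, against 151, 101.4 and 103 FPKM in LY19WT. LY19Y646F replicate 1 was the highest of the 6 libraries and the other 2 of that line were the lowest. The Cufflinks 95% intervals of those rows were 180 to 196, 21.3 to 24.1 and 30.5 to 33.9 FPKM, so the spread within LY19Y646F is far wider than its estimated counting error. The means were 81.0 ± 92.8 FPKM in LY19Y646F and 119 ± 28.2 FPKM in LY19WT (SD, n = 3 each). The log2 difference of -1.15 (SE 0.82, 95% interval -3.22 to 0.93) did not pass the test, with a limma adjusted p of 0.350. It passed without LY19Y646F replicate 1, at -2.07 with a limma adjusted p of 0.00707.

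Rows without a gene name that overlap the MYC locus held most of the signal in the 2 low libraries. LY19Y646F replicate 2 had a row of 81379 bases, chr8:128672688-128754066, at 181 FPKM with an interval of 174 to 188. LY19Y646F replicate 3 had a row of 81122 bases, starting at the same base and ending at 128753809, at 212 FPKM with an interval of 203 to 221. Both begin far upstream of MYC and end at its 3′ end, and they take in the locus of CASC11, a long noncoding RNA gene beside MYC. In LY19Y646F replicate 1 the overlapping unnamed row, inside the gene, had 17.6 FPKM. Among LY19WT libraries, replicate 2 had a row of 144 bases at 26.7 FPKM with a wide interval of 12.8 to 40.6, and replicates 1 and 3 had none. The unnamed share of the total at MYC was thus 8.55%, 88.9% and 86.8% in LY19Y646F, against 0%, 20.8% and 0% in LY19WT.

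With named and unnamed rows added, MYC had 206, 204 and 244 FPKM in LY19Y646F, against 151, 128 and 103 FPKM in LY19WT. All 3 LY19Y646F libraries then stood above all 3 LY19WT libraries, the opposite direction to the named row. The means were 218 ± 22.6 FPKM in LY19Y646F and 127 ± 23.9 FPKM in LY19WT (SD, n = 3 each), a ratio of 1.71. In a limma fit of 12658 genes with unnamed rows added throughout, of which 27.2% were called, the difference was 0.78 (SE 0.18, 95% interval 0.34 to 1.22) with an adjusted p of 0.0262. Leaving out each library in turn kept the difference between 0.64 and 0.91, but only 1 of the 6 fits passed the test, with limma adjusted p from 0.023 to 0.079. The sum is approximate, since rows of unequal length are added, the tables give no strand, and the long rows may include transcripts other than MYC. A direction for MYC between the lines therefore depends on how the unnamed rows are counted. MYC has no row under its name alone in the authors' deposited table, where any row that names several genes was not searched. CASC11 there spans chr8:128698588-128755163, which includes MYC, and the authors' deposited table gives it 0.00922 FPKM in LY19Y646F and 2.90 FPKM in LY19WT.

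**Figure D2:**
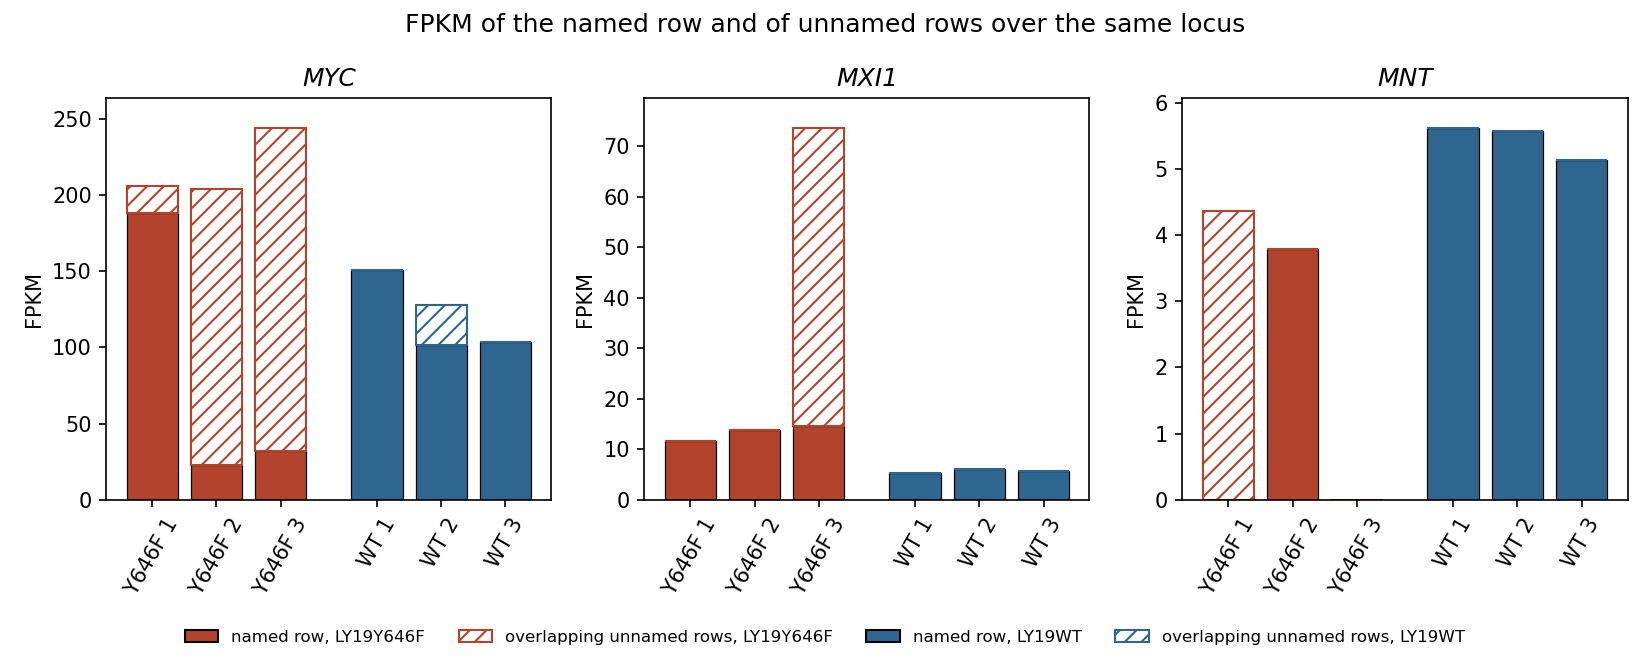
FPKM of the named row (filled) and of unnamed rows overlapping the same locus (hatched) for MYC, MXI1 and MNT in each library, with LY19Y646F left of LY19WT. The hatched part makes up most of MYC in LY19Y646F replicates 2 and 3 (181 and 212 FPKM), of MXI1 in LY19Y646F replicate 3 (59.0 FPKM) and all of MNT in LY19Y646F replicate 1 (4.36 FPKM). The span used for MNT is widened by its merged row in that library.

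PVT1, the noncoding neighbour downstream of MYC, was looked at after its values were seen. It had 13.7, 115 and 26.9 FPKM in LY19Y646F, against 6.45, 8.77 and 9.09 FPKM in LY19WT, and was highest in LY19Y646F replicate 2.

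MYCN, the paralogue that drives neuroblastoma, had a row of its own at hg19 chr2:16080686-16087129 in every library. It was listed at 0 FPKM in all 6 and no unnamed row overlapped it.

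MAX, the obligate partner, had 48.8, 22.7 and 24.6 FPKM in LY19Y646F, against 41.6, 34.3 and 32.5 FPKM in LY19WT, at hg19 chr14:65472892-65569413. Replicate 1 was the highest library of each line, and the lines overlapped. The means were 32.03 ± 14.5 FPKM in LY19Y646F and 36.1 ± 4.84 FPKM in LY19WT (SD, n = 3 each). The log2 difference of -0.25 (SE 0.32, 95% interval -1.05 to 0.56) did not pass, with a limma adjusted p of 0.594. Without LY19Y646F replicate 1 it was -0.58 with a limma adjusted p of 0.0361. The authors' deposited table gave MAX 34.7 FPKM in LY19Y646F and 44.9 FPKM in LY19WT, a log2 fold change of -0.37.

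The ratio of MYC to MAX was high or low in the same libraries according to which rows were counted. On named rows the ratio of the levels was 3.85, 1.00 and 1.31 in LY19Y646F, against 3.63, 2.96 and 3.18 in LY19WT. With unnamed rows added to MYC and the named row of MAX as divisor, it was 4.21, 8.99 and 9.91 in LY19Y646F, against 3.63, 3.73 and 3.18 in LY19WT. The ratios in LY19Y646F replicates 2 and 3 are the lowest of the 6 by the first count and the highest by the second.

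Among the repressors that pair with MAX, MNT, the most broadly expressed of them, had 0, 3.78 and 0 FPKM in LY19Y646F, against 5.62, 5.58 and 5.13 FPKM in LY19WT, at hg19 chr17:2287354-2304412. All LY19Y646F libraries lay below LY19WT, and 2 of them were listed at 0. The difference of -1.93 (SE 0.66, 95% interval -3.60 to -0.27) did not pass, with a limma adjusted p of 0.0794. It did without LY19Y646F replicate 2, at -2.69 with a limma adjusted p of 0.00102, which leaves only the libraries listed at 0. The authors' deposited table gave MNT 5.75 FPKM in LY19Y646F and 5.95 FPKM in LY19WT, a log2 fold change of -0.05. In LY19Y646F replicate 1 the MNT row is merged with a noncoding gene, and unnamed rows over that wider span summed to 4.36 FPKM. Of this, 3.95 FPKM was a row of 238 bases inside MNT, with an interval of 1.66 to 6.24. The other 0.412 FPKM lay outside the coordinates given above. A listed 0 may thus be a failed estimate, and no direction is given for MNT.

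MXD4, a repressor raised in resting and differentiating cells, was the lowest of the tested members. Its row at hg19 chr4:2249159-2264021, which also names MIR4800, had 1.38, 0.276 and 0.127 FPKM in LY19Y646F, against 3.996, 1.74 and 0.854 FPKM in LY19WT. The lines overlapped in 1 library each, and the interval of LY19WT replicate 2 ran from 0 to 34.6 FPKM. The log2 difference of -0.96 (SE 0.48, 95% interval -2.16 to 0.24) did not pass, with a limma adjusted p of 0.187. Unnamed rows over the locus had 4.46, 0.509 and 3.07 FPKM in LY19WT, and LY19Y646F had none. With these added the log2 difference was -1.82 with a limma adjusted p of 0.0499. With a library also left out 1 of 6 fits passed, with limma adjusted p from 0.048 to 0.15.

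MXD1, the repressor induced as cells leave the cell cycle, always shared a row with SNRNP27, a splicing factor gene, and could not be separated from it. The shared row had 78.4, 38.9 and 40.9 FPKM in LY19Y646F, against 49.7, 40.0 and 34.8 FPKM in LY19WT, and in LY19Y646F replicate 1 it also held GMCL1. Summed over GMCL1, MXD1 and SNRNP27 so that all libraries hold the same genes, the level was 78.4, 57.1 and 58.9 FPKM in LY19Y646F, against 66.1, 57.1 and 64.9 FPKM in LY19WT. The means were 64.8 ± 11.8 FPKM in LY19Y646F and 62.7 ± 4.86 FPKM in LY19WT (SD, n = 3 each, exact two-sided permutation p = 0.9, smallest possible 0.1).

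MXD3, the repressor seen in proliferating cells, shared its row with RAB24, a vesicle transport gene, and that row was listed at 0 FPKM in all 6 libraries. Unnamed rows over its locus, hg19 chr5:176728199-176739758, summed to 0.532, 4.31 and 2.28 FPKM in LY19Y646F, against 0, 2.21 and 0 FPKM in LY19WT. Every LY19Y646F library and 1 LY19WT library had such a row.

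MGA, the scaffold of a repressive complex and the largest protein of the network, did not pass the test. It had 7.72, 10.3 and 11.04 FPKM in LY19Y646F, against 8.13, 9.51 and 10.2 FPKM in LY19WT, at hg19 chr15:41913422-42062141. Replicate 1 was the lowest of each line and the lines overlapped. The means were 9.69 ± 1.74 FPKM in LY19Y646F and 9.28 ± 1.04 FPKM in LY19WT (SD, n = 3 each). The log2 difference of 0.05 (SE 0.17) has a 95% interval of -0.38 to 0.48 and a limma adjusted p of 0.857.

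MLX was left out of the fit because its row was merged with COASY and NAGLU in LY19Y646F replicate 2. Its own row, at hg19 chr17:40719086-40725257 and longer in 2 LY19WT libraries, had 43.1 and 40.4 FPKM in LY19Y646F replicates 1 and 3, against 28.0, 33.5 and 32.9 FPKM in LY19WT. Those 2 libraries lay above all 3 of LY19WT. Summed over COASY, MLX and NAGLU, however, the level was 84.1, 59.3 and 58.3 FPKM in LY19Y646F, against 75.1, 77.8 and 78.8 FPKM in LY19WT (exact two-sided permutation p = 0.4, smallest possible 0.1).

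**Figure D3:**
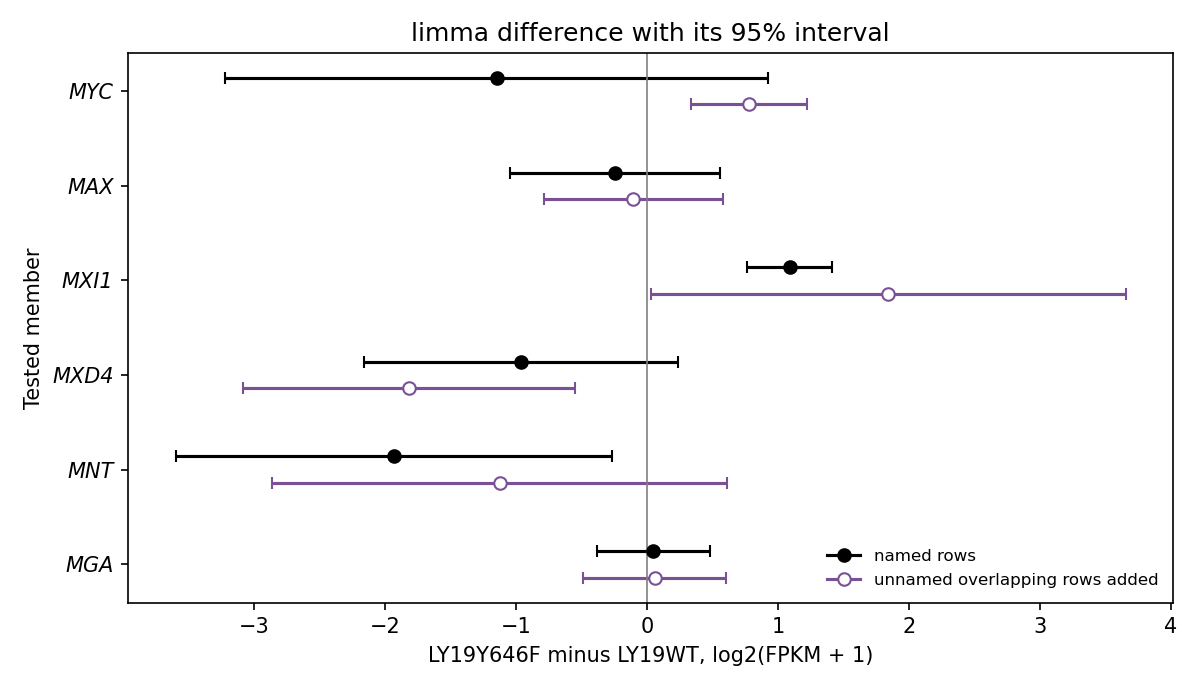
limma difference of log2(FPKM + 1), LY19Y646F minus LY19WT, with its 95% interval for the 6 tested members, on named rows (filled) and with unnamed overlapping rows added (open). MYC lies at -1.15 on named rows and at 0.78 with unnamed rows added; the interval of MXI1 lies above 0 in both fits.

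Genes whose pattern across the 6 libraries was most like that of a member were ranked by the root mean square difference of centred log2(FPKM + 1) among 6527 candidates. CD84, at 0.03, LYN, at 0.05, and TBL1XR1, at 0.05, were nearest to MXI1. LYN, a SRC-family kinase of B cell receptor signalling, had 48.3, 61.2 and 58.2 FPKM in LY19Y646F, against 24.7, 26.9 and 26.9 FPKM in LY19WT. BRAT1, at 0.30, IKBKGP1, at 0.31, and UBALD2, at 0.34, were nearest to the named row of MYC, at a greater distance. BRAT1 had 19.9, 2.64 and 1.83 FPKM in LY19Y646F, against 19.9, 9.18 and 8.97 FPKM in LY19WT. It was highest in replicate 1 of each line, as was the named row of MYC.

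The genes around the network were described by lists from general knowledge. The lists were chosen with earlier results of these data known, so the shares called in them only describe the data. They held 169 symbols, 165 of them found and 103 tested. Of these, 20 were higher and 12 lower in LY19Y646F, or 31.1% called, close to the 33.3% of all tested genes. The median difference was 0.07, beside -0.03 over all tested genes.

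Of 8 tested genes that MYC is known to repress, 5 fell in LY19Y646F and none rose, 62.5% called beside 33.3% of all tested genes. The list median was -1.59. These figures include NDRG1, which averaged 0.395 FPKM in LY19Y646F and 3.08 in LY19WT. It reached the filter of 0.5 FPKM on the mean only through LY19WT, so no test is read from it. With the filter at 2 FPKM the list had 4 calls. CDKN1B, which encodes the cyclin-dependent kinase inhibitor p27, had 2.03, 3.59 and 3.45 FPKM in LY19Y646F, against 31.4, 20.8 and 22.8 FPKM in LY19WT (log2 difference -2.69, limma adjusted p 0.000842). ID2, an inhibitor of helix-loop-helix factors, had 61.8, 50.4 and 49.2 FPKM in LY19Y646F, against 233, 290.4 and 199 FPKM in LY19WT (log2 difference -2.13, limma adjusted p 0.000597). KLF6, a zinc finger factor, was lower by a log2 difference of -1.64 and NDRG1, a stress-response gene, by -1.55. CDKN2C, which encodes the inhibitor p18, was named after its values were seen and differed by -1.68. Over the whole list the libraries of the lines did not overlap for 5 of 8 genes, against 48.6% of all tested genes.

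Of 38 tested genes that MYC is known to activate, 9 rose and 3 fell, 31.6% called beside 33.3% of all tested genes. The list median was 0.26. NDUFAF4, a mitochondrial complex I assembly factor, had 181, 190 and 175 FPKM in LY19Y646F, against 73.0, 79.1 and 83.0 FPKM in LY19WT (log2 difference 1.21, limma adjusted p 0.000343). PHB, which encodes prohibitin, differed by 0.84, and PES1, a ribosome biogenesis factor, by 0.60. HSPD1, a mitochondrial chaperonin, had 1614, 1933 and 3785 FPKM in LY19Y646F, against 477, 499 and 543 FPKM in LY19WT (log2 difference 2.17, limma adjusted p 0.00564). Its neighbour HSPE1, in a merged row and also named after its values were seen, was listed at 0 in all 3 LY19Y646F libraries and had 891 to 1116 FPKM in LY19WT, so how the authors' tables divide the 2 genes is uncertain. The 3 that fell, named after their values were seen, were GNL3, which encodes the nucleolar protein nucleostemin, at a log2 difference of -1.13, SORD, sorbitol dehydrogenase, at -0.85, and SRM, spermidine synthase, at -0.56.

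Of 12 tested corepressor genes through which MXD proteins and MNT act, 2 rose and 2 fell, with a median of -0.11. The 33.3% called is the same share as among all tested genes. HDAC2, a histone deacetylase, had 38.1, 45.7 and 48.9 FPKM in LY19Y646F, against 113, 127 and 136 FPKM in LY19WT (log2 difference -1.49, limma adjusted p 0.000806). SAP30, a SIN3 subunit, had 12.7, 10.6 and 9.52 FPKM in LY19Y646F, against 37.2, 26.3 and 26.7 FPKM in LY19WT (log2 difference -1.37, limma adjusted p 0.00367). RBBP4, a histone-binding subunit that is also part of Polycomb repressive complex 2, and SUDS3, a SIN3 subunit, rose by 0.66 and 0.61.

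Of 12 tested coactivators and partners of MYC, 3 rose and none fell, 25% called beside 33.3% of all tested genes. The list median was -0.13. BPTF, a subunit of the NURF remodeller, differed by 0.99, KAT5, the TIP60 acetyltransferase, by 1.04, and RUVBL1, a helicase of the TIP60 complex, by 0.47. ACTL6A, an actin-like subunit of the same complexes, had 50.5, 73.5 and 52.8 FPKM in LY19Y646F, against 87.6, 79.6 and 81.3 FPKM in LY19WT, and did not pass (limma adjusted p 0.0711).

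Of 13 tested genes that govern MYC protein stability, 4 rose and none fell, 30.8% called. Of all tested genes 33.3% were called, 16.8% as higher. The list median was 0.33. PIM1, a kinase reported to stabilise MYC, had 7.13, 8.19 and 6.43 FPKM in LY19Y646F, against 1.65, 1.99 and 1.84 FPKM in LY19WT (log2 difference 1.54, limma adjusted p 0.000793). USP36, a nucleolar deubiquitinase that stabilises MYC, differed by 1.36, USP7, another deubiquitinase, by 1.70, and PPP2R5A, a regulatory subunit of protein phosphatase 2A, by 0.98. PPP2R5A is known for lowering MYC protein, and protein was not measured here.

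Around MGA, 11 genes of its complex were tested, and 2 fell and none rose, 18.2% called beside 33.3% of all tested genes. The list median was -0.01. RYBP, a subunit of variant Polycomb complexes, had 3.21, 3.92 and 3.99 FPKM in LY19Y646F, against 6.74, 7.89 and 8.31 FPKM in LY19WT (log2 difference -0.88, limma adjusted p 0.0066). The other was HDAC2, which is in both lists. L3MBTL2, a methyl-lysine reader of that complex, had 35.4, 21.2 and 33.3 FPKM in LY19Y646F, against 22.6, 14.9 and 15.5 FPKM in LY19WT, and did not pass (limma adjusted p 0.0953). Of 12 germline genes bound by that complex, SMC1B and DAZL reached the filter on mean FPKM, and both did so through their values in LY19Y646F, so no test is read from them. SMC1B, a meiotic cohesin subunit, had 1.01, 0.781 and 1.03 FPKM in LY19Y646F, against 0.0451, 0.0369 and 0.337 FPKM in LY19WT. DAZL, a germ cell RNA-binding protein, had 0.486, 7.30 and 7.50 FPKM in LY19Y646F and was listed at 0 in all LY19WT libraries. Below the filter, and named after their values were seen, MAEL, a piRNA pathway gene, had 0.0203 to 0.0253 FPKM in LY19Y646F and 0.274 to 0.448 FPKM in LY19WT, and STK31, a germ cell kinase-like gene, had 0.0497 to 0.0645 FPKM in LY19Y646F and 0.238 to 0.336 FPKM in LY19WT. STAG3 and SYCE2 of this list were outside the fit, were also named after their values were seen, and are given as all rows naming them. STAG3 was listed at 0 in LY19Y646F and had 56.7, 49.5 and 2.21 FPKM in LY19WT. SYCE2 had 92.5, 0 and 1.17 FPKM in LY19Y646F, against 0, 0 and 2.01 in LY19WT. The list thus holds values on either side.

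Among targets of MLX and its partner MLXIP, 1 of 5 tested rose and 1 fell, 40% called beside 33.3% of all tested genes, with a median of -0.53. The count was 1 without LY19WT replicate 2 or with quantile scaling. KLF10, a zinc finger factor, had 14.9, 14.8 and 13.1 FPKM in LY19Y646F, against 3.43, 3.89 and 3.45 FPKM in LY19WT (log2 difference 1.73, limma adjusted p 0.000277). ARRDC3, an arrestin-domain protein, had 3.04, 3.63 and 3.76 FPKM in LY19Y646F, against 5.64, 6.43 and 6.53 FPKM in LY19WT (log2 difference -0.69, limma adjusted p 0.0122). Of the other helix-loop-helix leucine zipper factors none of 4 tested was called by limma in either direction, and 1 of them, USF2, had an unadjusted p under 0.05. USF2, which also binds CACGTG, had 132, 91.3 and 76.8 FPKM in LY19Y646F, against 70.2, 51.3 and 62.0 FPKM in LY19WT, and did not pass (limma adjusted p 0.0859). MLXIP, TFE3 and TFEB had log2 differences of -0.03, 0.08 and 0.84 with limma adjusted p of 0.955, 0.911 and 0.644. KHK, of the MLX targets, and CBX1, of the MGA complex, had -0.53 and -0.77 with limma adjusted p of 0.426 and 0.138. HBP1 was listed at 0 in all LY19Y646F libraries and had 14.3, 10.1 and 0 FPKM in LY19WT. It reached the filter on mean FPKM only through LY19WT, so no test is read from it. The share called and the median of the 5 tested MLX targets include it.

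**Figure D4:**
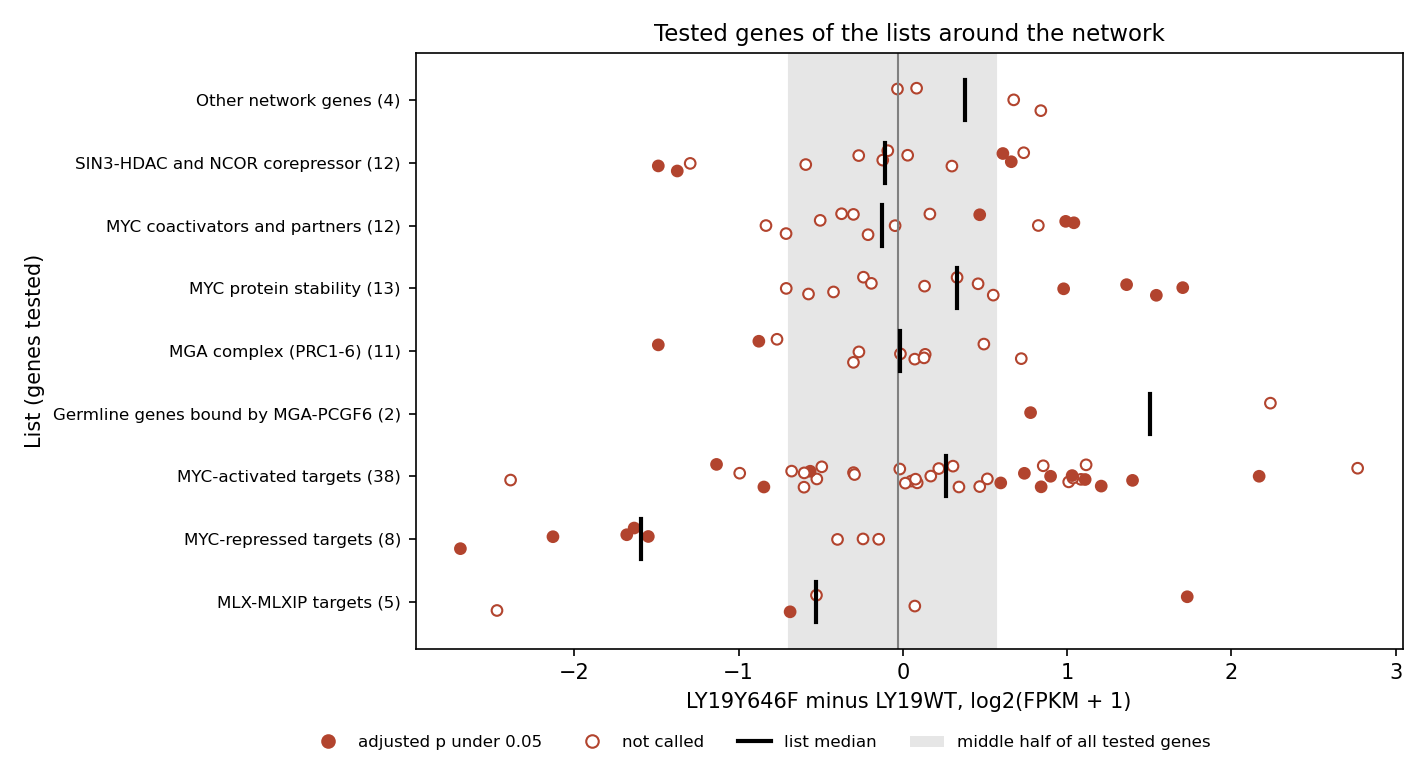
Difference of each tested gene of the lists, LY19Y646F minus LY19WT on log2(FPKM + 1), with filled points for adjusted p under 0.05, bars for list medians and grey for the middle part of all tested genes. The targets repressed by MYC lie furthest left, with a median of -1.59 that includes NDRG1, from which no test is read. The other lists with 4 or more tested genes have medians between -0.53 and 0.38. The lowest of these, for the MLX targets, likewise includes HBP1.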

How the data were processed

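Polyadenylated RNA of 6 libraries, 3 from LY19Y646F and 3 from LY19WT, was sequenced from a single end with a stranded kit, per the labels' protocols. STAR 2.5.3a, Cufflinks 2.2.1 and Cuffdiff 2.2.1 were used on hg19, per the submitters' processing notes. The authors deposited 1 table of FPKM per library, with 95% intervals, per the file headers, and a Cuffdiff table with mean FPKM and a log2 fold change for each gene. Each library was assembled alone, so a gene can have its own row, share one, or have fragments in a row without a name. Read depth is unknown. Interval widths cover counting error as Cufflinks estimated it.

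Groups came from the sample titles. Rows were taken for a protein-coding gene where they named no other protein-coding gene, and for a noncoding gene where they named it alone. This left out 8959 of 56584 symbols. These had a row shared beyond that rule, a failed status or no usable row in some library. The remaining genes averaging 0.5 FPKM or more were tested with limma 3.58.1 in R 4.3.3 on log2(FPKM + 1), with trend, two-sided and Benjamini-Hochberg adjusted. On this scale changes of low genes are understated. Members outside the fit have exact permutation tests over libraries of sums per locus. The steps were tested on simulated data. Alternatives were a pseudocount of 0.1, other filters, scalings, row rules, library weights, a replicate block and leaving out each library. The addition of unnamed rows overlapping a gene was chosen after seeing the data. Joins and plots were made in Python 3.11.15 (matplotlib 3.10.9, scipy 1.17.1, numpy 2.4.6, pandas 2.3.3).

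All 10 members were named, and in each list up to 4 genes with the smallest adjusted p, taken first from the direction with more calls. Genes named beyond this rule are marked as such in the text. The members and lists were chosen with earlier results of these data known. Row coordinates are hg19, counted from 1, and promoters are RefSeq on GRCh38.p14.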

Additional observations from a re-analysis of the deposited data

Results flagged for a closer look

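Rows without a gene name, outside the comparison of named rows, exceeded both a tested member's own row and their level in every LY19WT library at 3 loci. At MYC they summed to 181 FPKM in LY19Y646F replicate 2 and 212 FPKM in LY19Y646F replicate 3, beside at most 26.7 FPKM in a LY19WT library. At MXI1 the value was 59.0 FPKM in LY19Y646F replicate 3, and at MNT 4.36 FPKM in LY19Y646F replicate 1, with none in LY19WT at either gene. Of the MNT value, 3.95 FPKM was a short row inside the gene. Unnamed rows above a gene's own row and of at least 10 FPKM were found for 379 to 642 of the 10710 tested genes in a library, or 3.54% to 5.99%, so MYC is not alone in this. Adding them turned the direction of 906 tested genes, and 27 of these passed the test after the turn, or 0.252% of all 10710 tested genes. Smaller unnamed sums above those of LY19WT stood at MAX, with 5.63 FPKM in LY19Y646F replicate 3 against at most 2.52 FPKM in LY19WT, at MXD3, with 4.31 FPKM in LY19Y646F replicate 2 against at most 2.21 FPKM in LY19WT, and at MGA, with 2.08 FPKM in LY19Y646F replicate 2 against at most 1.23 FPKM in LY19WT. Only LY19Y646F libraries were searched for these flags, and unnamed rows also stood the other way. At MXD4 they had 4.46, 0.509 and 3.07 FPKM in LY19WT, and LY19Y646F had none. Over the MXD1 locus they summed to 3.54, 2.41 and 2.14 FPKM in LY19WT, against 0, 0 and 1.93 FPKM in LY19Y646F. The cause was not tested.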

How the results depend on the processing

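MXI1 kept its direction and its call in all 15 alternatives that left unnamed rows out, with log2 differences from 1.03 to 1.21. It lost the call where unnamed rows were added, unless LY19Y646F replicate 3 was left out. MYC turned to 0.78 with unnamed rows added, also with the replicate block (0.78, limma adjusted p 0.0813), and with a library left out as well: to 0.912, 0.794 and 0.639 without LY19WT replicates 1, 2 and 3, and to 0.821, 0.826 and 0.698 without LY19Y646F replicates 1, 2 and 3. MAX turned to 0.0764 with unnamed rows added and without LY19Y646F replicate 2. MGA, near 0, lay between -0.0440 and 0.188 with a library left out, at -0.0340 without LY19WT replicate 1 and -0.0440 without LY19Y646F replicate 3. With unnamed rows added it was -0.0322 without LY19WT replicate 1 and -0.0704 without LY19Y646F replicate 2. With library weights 5778 genes, 53 list genes and 4 members were called, against 3563, 32 and 1. Adding unnamed rows gave 2 members. Leaving out each library gave 2785 to 4069 genes, 27 to 36 list genes and 1 to 3 members, with the 3 being MXI1, MAX and MYC without LY19Y646F replicate 1. The list of targets repressed by MYC had 4 to 6 calls in every setting run, while the germline list had 0 to 5. Some of these calls are of genes from which no test is read, such as NDRG1 and SMC1B.

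Same-numbered libraries of the lines deviated together with correlations of 0.264, 0.0993 and 0.133, so the numbers were not taken as pairs, although each library correlated best with its own number. The replicate block gave 3880 genes, 42 list genes and 2 members, adding MXD4 (limma adjusted p 0.0245). Unknown read depth and 3 libraries a line limit what can be detected. The cause of these shifts was not tested.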

Other observations

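Some partners of the network shared rows with other genes and stayed outside the fit. They were picked after their values were seen and have no test. SIN3A, the scaffold of the corepressor of MXD proteins, stood in rows with 15.8, 15.3 and 14.6 FPKM in LY19Y646F, against 41.7, 30.9 and 29.7 FPKM in LY19WT, and some of these rows also named MAN2C1. HDAC1, a deacetylase of the same complex, had 225, 176 and 239 FPKM in LY19Y646F, against 89.4, 97.9 and 86.4 FPKM in LY19WT. TXNIP, a glucose-responsive target of MLX and MLXIP, had 62.9, 82.9 and 93.8 FPKM in LY19Y646F, against 35.9, 53.6 and 34.2 FPKM in LY19WT. CDK4, a cell cycle kinase gene known as a MYC target, had 228, 175 and 170.04 FPKM in LY19Y646F, against 548, 318 and 324 FPKM in LY19WT.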
